A study of Mus musculus with 8 samples.

Results

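The genes described here are 8 long non-coding RNAs whose introns carry small nucleolar RNAs (snoRNAs): Zfas1, 2410006H16Rik, Gas5, Snhg1, Snhg3, Snhg5, Snhg6 and Snhg12. They are the listed symbols that a probe set carried alone in the platform annotation, which gave 17 probe sets for 8 of 18194 named genes. All 8 passed a filter on low signal, which kept 14267 genes. The list was drawn up with earlier results of these arrays known, in which cocultures had been set against mixed RNA. The values of that comparison are therefore given for the 8 genes as a description, without a test. The comparison of the knockdowns is given with its test. Averaged over mixes and cocultures, it uses other differences between the same arrays. Within the mixes or the cocultures alone it is not separate from the coculture comparison. Whether it also played a part in drawing up the list is not known.

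The RNA came from embryonic stem cells of a mouse cross, 129X1 x 129S1, and was read on Affymetrix arrays. Cells carrying a short hairpin against Top1 (shTop1) or against p53 (shp53) were combined with mock cells at 1:4. In the 2 coculture groups the knockdown and mock cells grew in 1 culture over 4 days. In the 2 mix groups each was cultured alone over the same time and the RNAs were joined at that ratio, so that the knockdown's own effect stands in both arms. Each of the 4 groups had 2 arrays, labelled biological replicates, with nothing on separate thaws or passages, so that p-values measure only the spread between these samples. Knockdown material was 20% of what was combined in every group, its share after 4 days of coculture was not measured here, and the labels do not say whether a line is 1 clone.

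A snoRNA guides the chemical modification or the cutting of ribosomal and other RNA. Those of the box C/D class (symbols with Snord) direct methylation of the ribose, and those of the box H/ACA class (Snora) direct the change of uridine to pseudouridine, apart from a few that act in cutting the ribosomal precursor. Most are cut out of introns after splicing. In many non-coding hosts the joined exons encode no conserved protein, begin with the pyrimidine-rich 5′ end of the TOP class that ties translation to growth signals through mTOR, and are removed by nonsense-mediated decay when ribosomes read them. The level of such a spliced host RNA depends on its decay as well as its transcription, and need not follow that of its snoRNAs. The arrays read the host RNAs and not the mature snoRNAs.

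In the RefSeq annotation of GRCm38.p6 all 8 genes were found and all are typed as long non-coding RNA, with spans of 1754 bases (Snhg3) to 3939 bases (Gas5). Gas5 (chr1:161034601-161038539) and Snhg1 (chr19:8723487-8726326) each hold 8 annotated snoRNAs. Snhg12 (chr4:132308678-132311024) holds 4, of which 3 are named as H/ACA and 1 as C/D. Zfas1 (chr2:167062934-167065862) and 2410006H16Rik (chr11:62602877-62604806) hold 3 each, and those of the latter are Snord49a, Snord49b and Snord65. Snhg3 (chr4:132351933-132353686) holds Snora73a and Snora73b, Snhg5 (chr9:88521052-88522897) holds 2 without a snoRNA symbol, and Snhg6 (chr1:9942025-9944118) holds Snord87. Snhg12 and Snhg3 lie 40908 bases apart on chromosome 4. The span of Zfas1 overlaps the protein-coding gene Znfx1 and that of Snhg6 overlaps Mcmdc2, and the position of the probes was not given in the sources used here.

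Because the 5′ end is what puts a host RNA into the TOP class, 60 bases around the annotated start are shown for members on either side of the coculture comparison described below, from 40 bases before the start to 19 bases after its first base. Capitals mark a C within 5 bases of the start that is followed by at least 4 bases that are each C or T, read on the strand of the gene, to the end of that run.
2410006H16Rik, chr11:62602837-62602896, plus strand: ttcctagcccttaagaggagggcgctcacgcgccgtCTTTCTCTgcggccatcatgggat
Gas5, the downstream of 2 starts, chr1:161035126-161035185, plus strand: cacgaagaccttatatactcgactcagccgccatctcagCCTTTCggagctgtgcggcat
Zfas1, chr2:167062894-167062953, plus strand: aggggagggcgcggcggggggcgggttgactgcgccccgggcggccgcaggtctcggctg
Snhg3, chr4:132353667-132353726, minus strand: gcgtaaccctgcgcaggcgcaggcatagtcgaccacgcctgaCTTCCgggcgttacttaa
Snhg5, chr9:88522878-88522937, minus strand: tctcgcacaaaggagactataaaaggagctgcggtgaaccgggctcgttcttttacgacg
Snhg1, chr19:8723447-8723506, plus strand: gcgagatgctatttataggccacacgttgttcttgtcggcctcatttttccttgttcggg
Snhg12, chr4:132308638-132308697, plus strand: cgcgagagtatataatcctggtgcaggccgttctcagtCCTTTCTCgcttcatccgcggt
The promoter table held 8 starts for 7 of the genes. Such a run lay at a start of 4 of these 7 genes (2410006H16Rik, the downstream start of Gas5, Snhg3 and Snhg12), and at 18.3% of all 32851 starts in the table. The letters TATA, which read the same on both strands, began 40 to 20 bases before a start in 4 genes (Gas5, Snhg1, Snhg5 and Snhg12), against 5.81% of all starts. That motif was chosen after the sequences were seen. Genes with and without a pyrimidine run stood on both sides of the comparison that follows, with higher means in coculture for 2410006H16Rik, Gas5 and Zfas1 and lower means for Snhg1, Snhg3, Snhg5 and Snhg12. These sides are those of the brightest probe set, averaged over both knockdowns. Other probe sets of Gas5, Snhg1 and Snhg5 went both ways, as described below.

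Mean signal was 812 to 896 per array, and the 3′ to 5′ log2 ratio of the Actb control probes, a sign of RNA integrity, was 0.46 to 0.67 in the mixes and 0.49 to 0.68 in the cocultures. shTop1 coculture replicate 1 stood apart from the other arrays on the second principal component (32.6 against -15.5 to 3.63), and shTop1 coculture replicate 2 on the first (26.1 against -21.1 to 12.5). The latter is the array with the lowest Snhg1, Snhg3 and Snhg5 and the highest Gas5 signal described below, and values without it are given there where they moved by over 1.5 times. On the first component all 4 cocultures (-2.94 to 26.1) lay above all 4 mixes (-21.1 to -5.14). That array was thus the far end of the coculture side. All 10 pluripotency markers passed the filter, with a summed signal of 116300 to 124000 per array. The sum hides moves of single markers. In the mean coculture comparison 7 were above and 3 below 0, and none passed over all genes. Those with the smallest p were Zfp42 (-0.28 ± 0.10), Fgf4 (0.21 ± 0.08) and Sox2 (-0.29 ± 0.12, log2, SE). Of 10 fibroblast markers, a cell type that such cultures can hold, 5 passed (Col3a1, Postn, Dcn, Lum and Twist2 lay below the filter), and the summed signal of the list, most of it from Pdgfra, was 1531 to 1717 in the mixes and 1644 to 2068 in the cocultures. Averaged over both knockdowns, all 5 were higher in coculture, with a median log2 difference of 0.30 (0.13 with no filter). That size is within the range of the host differences described below. Within a knockdown 4 were above and 1 below 0, Pdgfra with shTop1 (-0.004) and Col1a1 with shp53 (-0.11). Col1a1, at 5.34 to 40.2 over the arrays, lies near the filter. Thy1 (0.35 ± 0.09) and Fbln2 (0.30 ± 0.08) had an unadjusted p under 0.05 and did not pass over all genes (SE, limma adjusted p = 0.3452 for both). Their part in the results was not tested. Top1 had a signal of 5110 to 5316 on the shTop1 mixes, 5281 to 5283 on the shTop1 cocultures, 5456 to 5682 on the shp53 mixes and 5572 to 5886 on the shp53 cocultures, a hairpin difference of -0.11 ± 0.07 on the log2 scale (SE, limma adjusted p = 0.9993). The level of the p53 gene is not analysed here.

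In coculture the 8 hosts did not move as a block. The signal of Zfas1, 2410006H16Rik and the brightest Gas5 probe set was higher on all 4 cocultures than on any mix, and that of Snhg3 and Snhg5 was lower on all 4. Snhg1, Snhg6 and Snhg12 had lower means with arrays that overlapped. Averaged over both knockdowns, the log2 differences ran from -0.27 (Snhg3) to 0.47 (Zfas1), with 3 above and 5 below 0 and a median of -0.11, where the median over all genes tested was 0.02. The median of the 8 was -0.048 when shp53 coculture replicate 2 was left out and -0.17 when replicate 1 was. Over all genes limma called 0 of 14267 at an adjusted p under 0.05, a percent called of 0, with 1672 (11.7%) at an unadjusted p under 0.05. Of all genes tested, 5.75% had all cocultures above all mixes and 3.35% had all below.

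**Figure D1:**
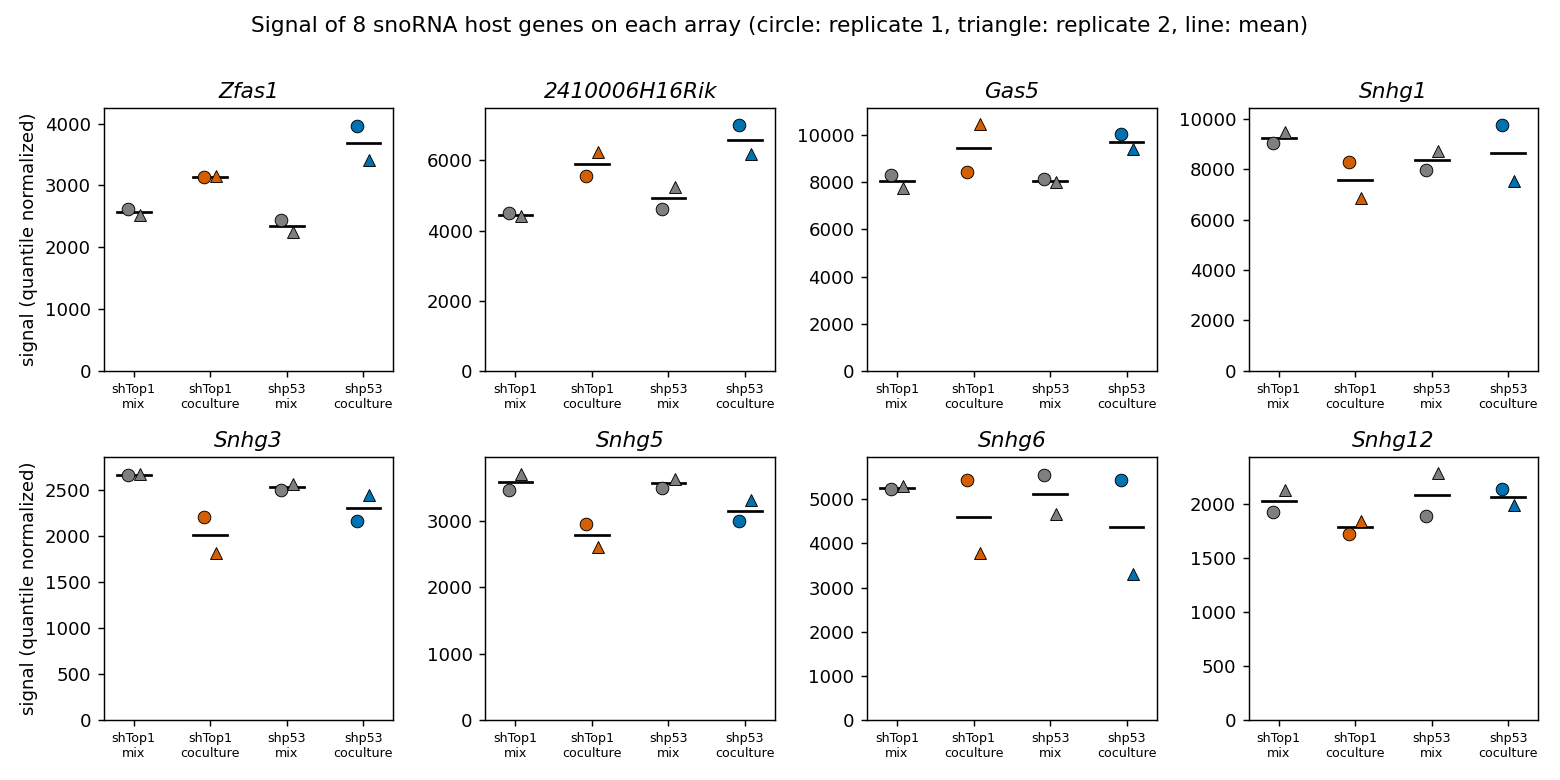
Each panel plots the quantile-normalized signal (vertical axis, linear, from 0) of 1 host gene on the 8 arrays, grouped by knockdown and condition, with circles for replicate 1, triangles for replicate 2 and a line at the group mean. Zfas1 lies at 2244 to 2622 on the mixes and 3130 to 3959 on the cocultures, while Snhg3 lies at 2496 to 2671 and 1813 to 2443.

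Zfas1, which starts beside the promoter of Znfx1 and was first studied in the mammary gland, had a signal of 2622 and 2520 on the shTop1 mixes and 3130 and 3148 on the shTop1 cocultures. With shp53 it was 2444 and 2244 on the mixes and 3959 and 3409 on the cocultures. Every coculture lay above every mix, and the shp53 cocultures were the highest. The difference was 0.29 ± 0.11 with shTop1 and 0.65 ± 0.11 with shp53 (log2 of signal plus 16, SE), ratios of 1.22 and 1.56. Their mean was 0.47 ± 0.08, and stayed between 0.42 and 0.52 when any 1 array was left out.

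2410006H16Rik, the host of the Snord49 and Snord65 snoRNAs, had a signal of 4490 and 4421 on the shTop1 mixes and 5547 and 6235 on the shTop1 cocultures. With shp53 it was 4621 and 5251 on the mixes and 7000 and 6191 on the cocultures. The groups did not overlap, and the lowest coculture (5547) stood close to the highest mix (5251). The differences were nearly equal in the 2 knockdowns, 0.40 ± 0.12 with shTop1 and 0.42 ± 0.12 with shp53 (SE), and their mean corresponded to a ratio of 1.33.

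Gas5, named for its accumulation when growth stops, was read by 4 probe sets that went 2 ways. The brightest (1449410_a_at) had 8330 and 7779 on the shTop1 mixes, 8461 and 10480 on the shTop1 cocultures, 8130 and 8030 on the shp53 mixes and 10060 and 9405 on the shp53 cocultures. Its mean difference was 0.25 ± 0.09 (SE), a ratio of 1.19. Its lowest coculture (8461) stood close to its highest mix (8330). With shTop1 the difference was 0.23. It was 0.072 when shTop1 coculture replicate 2 was left out and 0.38 when replicate 1 was. The next brightest (1419291_x_at, whose suffix marks probes that can also match other transcripts) had 7261 to 7779 on the mixes and 6579 to 10790 on the cocultures, which overlapped.

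The 2 dimmer Gas5 probe sets were lower in coculture. The first (1436222_at) had 1986 and 2143 on the shTop1 mixes and 1309 and 925.7 on the shTop1 cocultures, and 1423 and 1271 on the shp53 mixes and 1057 and 1152 on the shp53 cocultures. Within each knockdown the cocultures were below the mixes, by 0.90 ± 0.19 with shTop1 and 0.28 ± 0.19 with shp53 (size on the log2 scale, SE, from a fit of all 34958 named probe sets). The second (1424843_a_at) had 1702 to 1987 on the mixes and 1336 to 1840 on the cocultures, a mean difference of -0.27 ± 0.13. Within an array the signal of the brightest probe set was 3.63 to 6.32 times that of 1436222_at on the mixes and 6.46 to 11.3 times on the cocultures. Against 1424843_a_at the ratio was 3.92 to 4.78 on the mixes and 5.70 to 6.40 on the cocultures. Against 1419291_x_at it was 1.03 to 1.14 on the mixes and 0.871 to 1.29 on the cocultures, which overlapped. These pairs were chosen after their values were seen. The ratios to the 2 dimmer probe sets were higher on every coculture, which shows unequal change of the probe sets and not which transcript each reads. With the mean of all its probe sets the Gas5 difference was -0.09, against 0.25 for the brightest alone.

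Snhg3, the host of the H/ACA snoRNA U17 that takes part in cutting the ribosomal precursor, had a signal of 2656 and 2671 on the shTop1 mixes and 2206 and 1813 on the shTop1 cocultures. With shp53 it was 2496 and 2558 on the mixes and 2159 and 2443 on the cocultures. All cocultures lay below all mixes, and shp53 coculture replicate 2 (2443) was near the lowest mix (2496). The difference was -0.41 ± 0.13 with shTop1 and -0.14 ± 0.13 with shp53 (SE). Their mean of -0.27 corresponded to a ratio of 0.827, and the shp53 value was -0.048 without shp53 coculture replicate 1 and -0.22 without replicate 2. Leaving out shTop1 coculture replicate 2 gave -0.27 with shTop1.

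Snhg5, which hosts the C/D snoRNA U50, had a signal of 3471 and 3719 on the shTop1 mixes and 2963 and 2613 on the shTop1 cocultures. With shp53 it was 3501 and 3641 on the mixes and 2999 and 3312 on the cocultures. The groups did not overlap, as in Snhg3, and the same array, shTop1 coculture replicate 2, was the lowest for both genes. The difference was -0.37 ± 0.11 with shTop1 and -0.18 ± 0.11 with shp53, and -0.27 ± 0.08 as their mean (SE). The shp53 value was -0.11 without shp53 coculture replicate 1. The other Snhg5 probe sets were dim. One (1432738_at) had 26.9 to 74.8 over all arrays, and the other (1432737_at) had 5.74 to 30.7 and did not pass the filter, so its difference of 0.39 ± 0.24 lies near the floor. Averaging all 3 probe sets with equal weight gave -0.06.

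**Figure D2:**
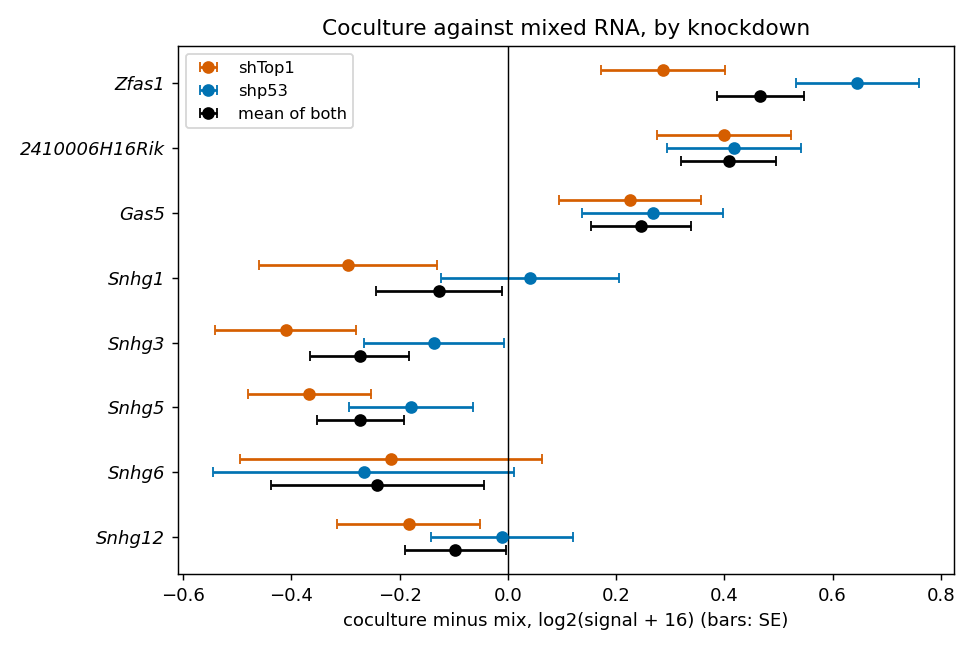
The horizontal axis is the difference of coculture and mix in log2(signal + 16), with a row for each host gene, orange for shTop1, blue for shp53, black for their mean, and bars for the standard error. Zfas1, 2410006H16Rik and Gas5 lie right of 0 in both knockdowns, and Snhg3, Snhg5 and Snhg6 lie left of it. Snhg1 and Snhg12 lie left with shTop1 (-0.30 and -0.18) and near 0 with shp53 (0.04 and -0.01).

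Snhg1, the host of Snord22 and 7 further snoRNAs, was read by 5 probe sets. The brightest (1439399_a_at) had 9046 and 9457 on the shTop1 mixes and 8286 and 6847 on the shTop1 cocultures, but 7957 and 8735 on the shp53 mixes and 9771 and 7528 on the shp53 cocultures. With shTop1 the cocultures lay below the mixes, by -0.30 ± 0.17, and with shp53 the groups overlapped, at 0.04 ± 0.17 (SE). With shTop1 the value was -0.16 without shTop1 coculture replicate 2. The shp53 value was -0.15 when shp53 coculture replicate 1 was left out and 0.23 when replicate 2 was. A second probe set (1433674_a_at) had 6406 to 6948 on the mixes and 6649 to 7165 on the cocultures, a mean difference of 0.06 ± 0.08. The dimmest (1454703_x_at) had 1819 to 2095 on the mixes and 1488 to 1749 on the cocultures, all lower, with a mean difference of -0.25 ± 0.09. Within an array the ratio of these last 2 was 3.06 to 3.62 on the mixes and 3.92 to 4.54 on the cocultures, a pair picked after the values were seen as the highest and lowest of the 5 differences. The other probe sets lay between, at -0.04 ± 0.13 (1433675_at) and -0.20 ± 0.20 (1437658_a_at, -0.46 ± 0.29 with shTop1).

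**Figure D3:**
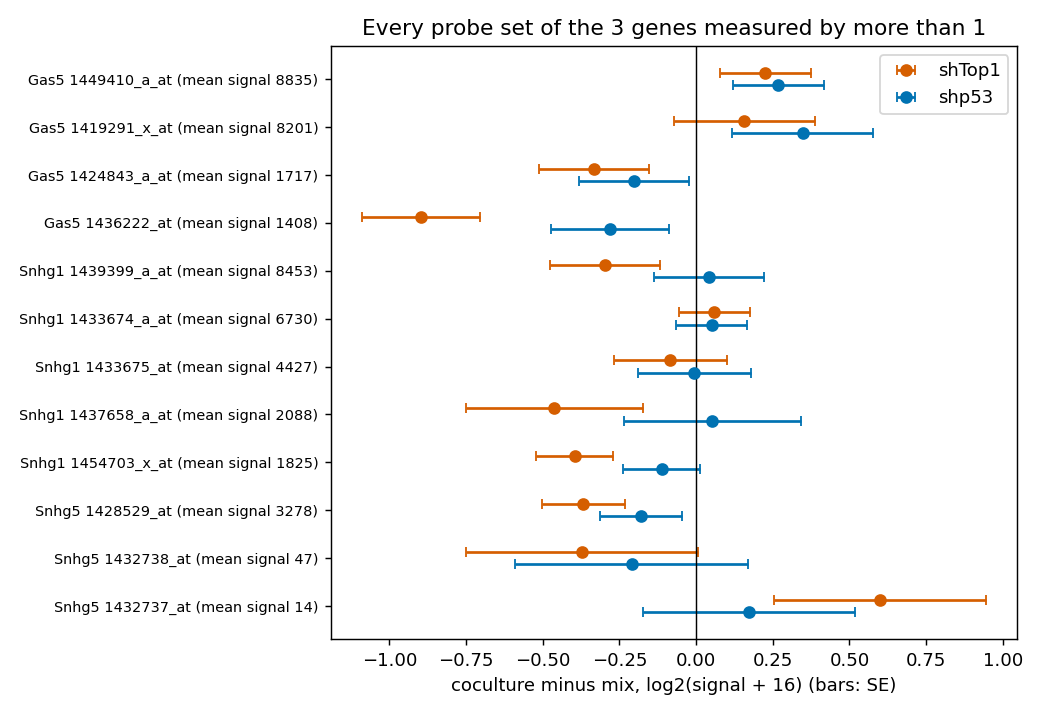
The horizontal axis is the difference of coculture and mix in log2(signal + 16) for each probe set of Gas5, Snhg1 and Snhg5, orange for shTop1 and blue for shp53, with the standard error as bars and the mean signal over groups beside each name. The 2 bright Gas5 probe sets lie right of 0 and the 2 dimmer ones left of it, down to -0.90 for 1436222_at with shTop1.

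Snhg6, the host of Snord87, had a signal of 5226 and 5304 on the shTop1 mixes and 5436 and 3774 on the shTop1 cocultures. With shp53 it was 5557 and 4676 on the mixes and 5436 and 3299 on the cocultures. In both knockdowns coculture replicate 2 was low and coculture replicate 1 was at the level of the mixes. The mean difference of -0.24 had a standard error of 0.20, the largest of the 8, and ranged from -0.42 (shp53 coculture replicate 1 left out) to -0.062 (shp53 coculture replicate 2 left out). Without its own low coculture array each knockdown's value was above 0, at 0.045 with shTop1 and 0.090 with shp53. Snhg12, the host with both snoRNA classes, had 1883 to 2286 on the mixes and 1721 to 2135 on the cocultures. Its difference was -0.18 ± 0.13 with shTop1 and -0.01 ± 0.13 with shp53 (SE), and the latter was 0.13 without shp53 mix replicate 2 and -0.15 without shp53 mix replicate 1.

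Set side by side, 3 genes had shTop1 cocultures above shTop1 mixes without overlap and 4 had them below (Snhg1, Snhg3, Snhg5 and Snhg12), where 24.5% and 16.9% of all genes tested did so. With shp53 the counts were 3 above and 2 below, against 20.9% and 17.1%. Within each knockdown limma called 0 of 14267 genes at an adjusted p under 0.05, with 8.2% at an unadjusted p under 0.05 for shTop1 and 6.86% for shp53. The difference between the knockdowns in their coculture values was negative in 7 of 8 genes, from -0.36 ± 0.16 for Zfas1 to 0.05 ± 0.39 for Snhg6 (SE), with a median of -0.18. All genes tested had a median of 0.007, with 51.5% above 0. The lean was not particular to the 8. Of 11 further non-coding hosts tested, 9 were below and 2 above 0, with a median of -0.26. Of 7 nuclear long non-coding RNAs outside the host lists, 5 were below and 2 above 0, with a median of -0.14. In this comparison limma called 0 of 14267 at an adjusted p under 0.05, a percent called of 0, with 614 (4.3%) at an unadjusted p under 0.05. Bulk RNA cannot tell fewer cells with a transcript from less of it per cell, and in the cocultures the knockdown and mock cells were read together.

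Between the knockdowns the host genes did not differ beyond their spread. Over mixes and cocultures together, the difference of shTop1 and shp53 ran from -0.15 (2410006H16Rik) to 0.07 (Snhg6), 7 of 8 were below 0, and the limma adjusted p was 0.9993 for each. Of all genes tested, 48.7% were above 0. Of 11 further non-coding hosts tested, 8 were below and 3 above 0, with a median of -0.14. With median centring the median over the 8 turned from -0.05 to 0.02. The 95% intervals were -0.37 to 0.06 for 2410006H16Rik, -0.24 to 0.15 for Zfas1, -0.25 to 0.20 for Gas5 and -0.41 to 0.55 for Snhg6, so that differences of these sizes are not excluded. No gene of the 8 had all 4 arrays of one knockdown beyond all 4 of the other, and 1.02% and 1.07% of all genes tested had so in either direction. Over all genes limma called 0 of 14267 at an adjusted p under 0.05, a percent called of 0, with 670 (4.7%) at an unadjusted p under 0.05.

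Taken by condition, the hairpin differences had a median of 0.03 in the mixes, with 5 of 8 above 0, and -0.18 in the cocultures, with 7 of 8 below 0. The latter median was -0.098 without shp53 coculture replicate 1 and -0.080 with median centring. Of all genes tested, 47.6% were above 0 in the mixes and 50.9% in the cocultures. The lean in the cocultures was not particular to the 8. There, 10 of 11 further non-coding hosts tested were below and 1 above 0, with a median of -0.25. All 7 nuclear long non-coding RNAs outside the host lists were below 0 there, with a median of -0.14. The coculture arrays also enter the difference between the knockdowns in their coculture values, so the 2 counts of 7 of 8 are not separate results. In the mixes Gas5 was level at its brightest probe set (-0.01 ± 0.13). Its probe set 1436222_at was higher with shTop1, at 1986 and 2143 against 1423 and 1271. That difference of 0.61 ± 0.19 did not pass over all named probe sets (limma adjusted p = 0.9332), and was -0.003 in the cocultures. In the cocultures Zfas1 was lower with shTop1 by a log2 difference of -0.23 ± 0.11 (SE), which did not pass either (limma adjusted p = 0.9999). In these 2 comparisons limma called 0 of 14267 genes, and 4.04% in the mixes and 4.78% in the cocultures had an unadjusted p under 0.05.

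**Figure D4:**
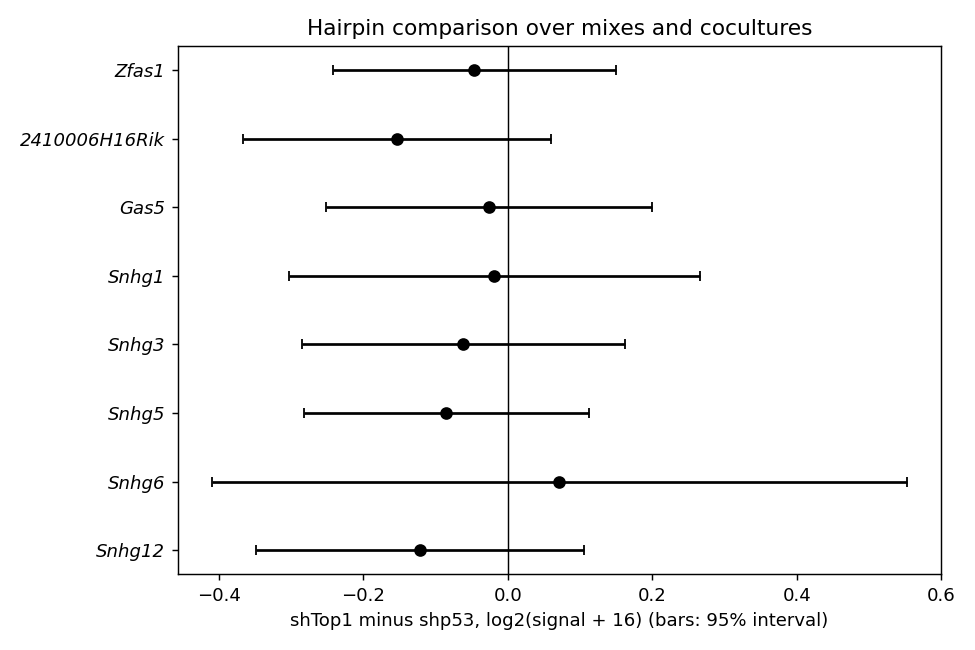
The horizontal axis is the difference of shTop1 and shp53 in log2(signal + 16), averaged over mixes and cocultures, with a row for each host gene and bars for the 95% interval of the limma fit. Every interval includes 0, and that of Snhg6 is the widest (-0.41 to 0.55).

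Of 14 further non-coding hosts of snoRNAs listed, 11 were tested, with 5 above and 6 below 0 in the mean coculture comparison, with a median of -0.06 and none past the adjusted threshold. At an unadjusted p under 0.05 there were 2, both lower (4.63% of all genes were lower by that rule and 7.09% higher). They were Snhg17 (-0.30 ± 0.10, limma adjusted p = 0.375) and Snhg14 (-0.68 ± 0.26, limma adjusted p = 0.401), the latter the long imprinted transcript that carries the Snord115 and Snord116 clusters. Snhg14 had 1605 to 2602 on the mixes and 956 to 1916 on the cocultures. Snhg16 stood next, at -0.29 ± 0.13. With shTop1 3 of 11 were lower at an unadjusted p under 0.05 (Snhg11, Snhg17 and Dancr, at -0.33, -0.45 and -0.32), where 3.08% of all genes were, and with shp53 none was, where 2.99% of all genes were. Snhg8, a bright member, had 4002 to 4473 on the mixes and 4361 to 4658 on the cocultures, a difference of 0.08 ± 0.07. The difference farthest above 0, 0.48 ± 0.64 for Snhg18, belonged to a dim gene with 15.1 to 118 over the arrays.

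Of 27 messenger RNAs listed as hosts of snoRNAs, 18 were tested, with 8 above and 10 below 0, a median of -0.002 and a range of -0.16 to 0.15. With median centring that median was 0.15, where the median of all genes was 0.07. None passed over all genes or had an unadjusted p under 0.05. The smallest p belonged to the chaperonin subunit gene Cct6a (-0.14 ± 0.07), the elongation factor gene Eef2 (0.15 ± 0.08) and Dkc1 (0.12 ± 0.07). A list of TOP messenger RNAs, which share the growth-regulated 5′ end, left out most ribosomal proteins but held Fau, which encodes one as a fusion. It had a median of 0.02 over 15 tested of 18 (0.16 with median centring), with 9 above and 6 below 0. Eef2, Fau (0.17 ± 0.10) and Eif4b (0.16 ± 0.09), the last a translation initiation factor gene, had the smallest p, and none passed.

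Messenger RNAs of the proteins that bind snoRNAs were measured too, and none passed over all genes. Of the box C/D core, 3 of 4 were tested, with 1 above and 2 below 0 and a median of -0.16. Nop58 had 7787 to 8137 on the mixes and 6391 to 7492 on the cocultures, which did not overlap, a difference of -0.22 ± 0.09 (limma unadjusted p = 0.0432, adjusted p = 0.4095). Nop56 was at -0.16 ± 0.09, and Fbl, the methyltransferase, at 0.09 ± 0.09. The box H/ACA core had a median of 0.008 over 4 genes (0.12 with median centring), from -0.007 for Gar1 to 0.12 for Dkc1, the pseudouridine synthase. The 10 assembly factors had a median of -0.04, with 3 above and 7 below 0, among them Nolc1 (-0.16 ± 0.07), Ruvbl2 (0.13 ± 0.09) and Znhit6 (-0.11 ± 0.08). Of 14 nonsense-mediated decay factors 9 were tested, 5 above and 4 below 0, with a median of 0.02 and none at an unadjusted p under 0.05. Those with the smallest p were Casc3 (0.17 ± 0.10), Upf2 (0.12 ± 0.09) and Smg9 (0.14 ± 0.16).

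Nuclear long non-coding RNAs that are not on the host lists had a median of -0.26, with 1 of 7 above and 6 below 0. None passed over all genes, and 4 were lower at an unadjusted p under 0.05, as were 4.63% of all genes. Kcnq1ot1, the imprinted antisense transcript of Kcnq1, had 258 to 338 on the mixes and 150 to 247 on the cocultures, and a difference of -0.62 ± 0.08 (limma adjusted p = 0.282). The others were Xist (-0.44 ± 0.08), which coats the inactive X chromosome, the microRNA host Mirg (-0.35 ± 0.10) and Neat1 (-0.26 ± 0.09), the RNA that builds paraspeckles. Malat1, by contrast, stood at -0.03 ± 0.08. In the hairpin comparison all 7 were below 0 with a median of -0.17, and none passed. That median was -0.039 without shTop1 mix replicate 2, -0.098 without shp53 coculture replicate 2 and -0.061 with each probe set taken alone.

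**Figure D5:**
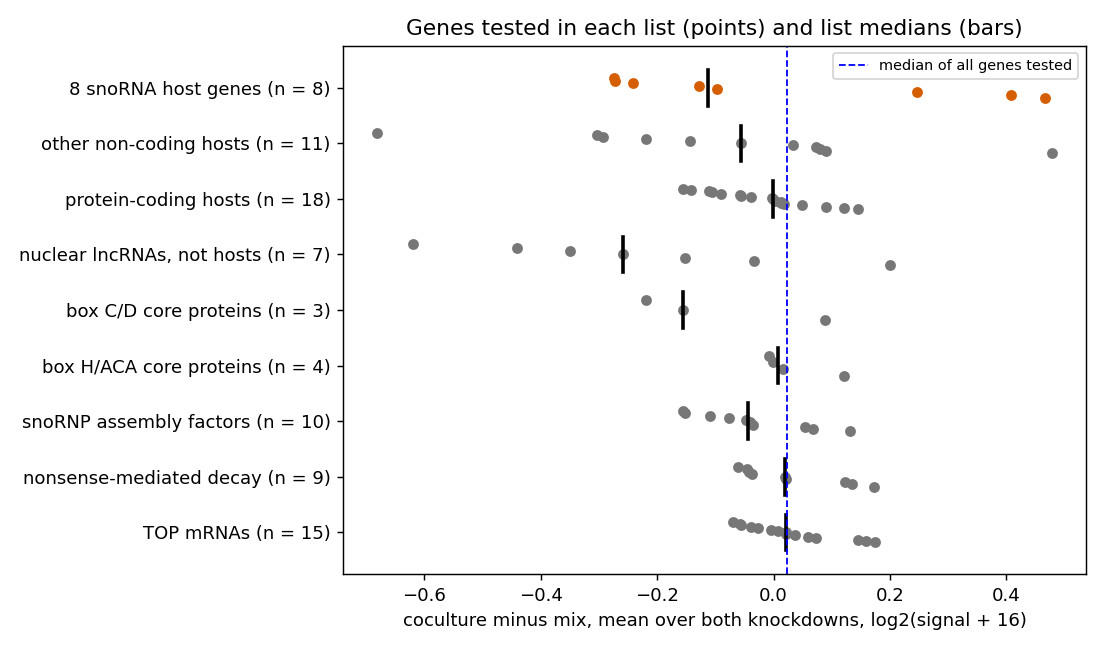
Each point is a tested gene of a list, placed by its difference of coculture and mix averaged over both knockdowns in log2(signal + 16), with a bar at the list's median and a dashed line at the median of all genes tested (0.02). The 8 host genes split into 3 points right of 0.2 and 5 left of 0, while the protein-coding hosts lie between -0.16 and 0.15.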

How the data were processed

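Expression was measured on 8 single-colour arrays. Per the file's values, the deposited intensities are linear, 1 per probe set, scaled by the authors to a common mean of 500 after trimming 2% at each end (tool: not given in the sources used here). Of 45101 probe sets 34958 carried 1 gene symbol, 932 several and 9211 were not listed. After quantile normalization, log2(value + 16) was used, a scale that understates changes of low genes. The brightest probe set on average stood for a gene, which was kept at or above the 30th percentile (a signal of 22.1). A model of the 4 group means was fitted to the 8 arrays in limma 3.58.1 (R 4.3.3; lmFit, eBayes with no trend, 4 residual degrees of freedom, two-sided, Benjamini-Hochberg over all genes, threshold 0.05), after a test on simulated data. SEs are those of this fit, whose spread is pooled over the 4 groups and drawn toward that of all genes. With 2 arrays per group their precision is limited.

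The members and lists were chosen with earlier results of these data known. Named were all 8 members, and per list and comparison described the genes past the threshold, otherwise up to 3 with the smallest p. Snhg8, Snhg18, Neat1, Malat1, Pdgfra, Col1a1 and the genes given only by their side of 0 were added after their values were seen. Sequences and loci are RefSeq's, of GRCm38.p6, which matched 8 of 8 members (7 with a promoter). Alternatives were a replicate block, pseudocounts of 1 and 64, leaving out each array, the authors' scaling alone or median centring, no filter or the 50th percentile, each probe set alone or their mean, fitting the compared groups only, and trended with robust variances.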

Additional observations from a re-analysis of the deposited data

Results flagged for a closer look

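Snhg11, a non-coding host of snoRNAs outside the 8 genes described, had a signal of 559.8 and 544.2 on the shTop1 mixes and 425.8 and 448.2 on the shTop1 cocultures, but 508 and 497.1 on the shp53 mixes and 561 and 610.4 on the shp53 cocultures. Both shTop1 cocultures thus lay below their mixes and both shp53 cocultures above theirs, a difference between the knockdowns of -0.54 ± 0.14 (log2, SE). The difference did not pass over all genes (limma adjusted p = 1).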

How the results depend on the processing

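For Zfas1, 2410006H16Rik, Snhg3, Snhg5, Snhg6, Snhg1 and Snhg12 the mean coculture difference kept its direction under the 9 alternatives that gave it 1 value per gene and when any 1 array was left out, and so did Gas5 except with the mean of its probe sets (-0.09). Probe sets taken alone went both ways in Gas5, Snhg1 and Snhg5, as given above. With variances fitted by trend and robustly, limma called 31 genes in the mean coculture comparison, 3 with shTop1 and 1 with shp53, against 0 otherwise, and none of the other 4 comparisons gained a call under any alternative. Leaving out 1 array moved the median of the 8 host genes between -0.28 and -0.057 with shTop1, the highest without shTop1 coculture replicate 2. With shp53 it moved between -0.083 and 0.16, the lowest without shp53 mix replicate 1 and the highest without shp53 coculture replicate 2, and it was 0.12 without shp53 mix replicate 2. In the cocultures the hairpin median was -0.080 with median centring, against -0.18. Hairpin differences near 0, averaged over conditions, turned above 0 with median centring for Zfas1 (0.035), Gas5 (0.058), Snhg1 (0.070) and Snhg3 (0.0091), for Gas5 with the mean of its probe sets (0.057) and for Snhg1 with the authors' scaling alone (0.0048). Leaving out 1 array they ranged from -0.10 to 0.0067 for Zfas1, -0.10 to 0.050 for Gas5, -0.11 to 0.076 for Snhg1, -0.13 to 0.0084 for Snhg3 and -0.11 to 0.25 for Snhg6. The cause of these moves was not tested.

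Over all genes the replicate numbers showed no pairing of the samples. The correlation of same-numbered arrays' deviations from their group means was -0.0067 to 0.051, under 0.1. Such a correlation cannot exclude an effect shared by same-numbered arrays in some genes. Snhg6, for example, was low on replicate 2 of both coculture groups. With the replicate block, 3 residual degrees of freedom were left, 0 genes were called in each of the 7 comparisons, and the median of the host genes in the mean coculture comparison was -0.11, as without it. The median of all genes in that comparison was 0.022 with quantile normalization and 0.068 with median centring. With 2 arrays per group, differences of genes near the filter of 22.1 call for the most caution, as the fit did not weight genes by signal.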

Other observations

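The genes whose pattern over the 8 arrays was most like the average of the 8 hosts, each centred and scaled, were Stard3 (Pearson's r = 0.955), Rdh11 (0.945), Skiv2l (0.920), Spink1 (0.918) and Acvr1 (0.917), among 7126 genes of at least median signal. The average mixes hosts that were higher and lower in coculture, and these 5 genes had mean coculture differences of only -0.10 to 0.002, and the highest of so many correlations over 8 arrays may arise by chance, which was not tested. The average itself was highest on shp53 coculture replicate 1 (0.72) and lowest on shTop1 coculture replicate 2 (-0.58).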
